A study of Mus musculus with 26 samples.

Results

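The 36 genes described here encode the proteins that fold other proteins in the lumen of the endoplasmic reticulum (ER): chaperones, their co-chaperones and cofactors, lectins, disulfide isomerases and oxidases, and prolyl isomerases. They were listed by name for their function, out of 55416 genes in the table, and sorted into 7 roles. All 36 reached a mean of at least 1 CPM (reads of the gene relative to the size of its library) in both groups of the time series and were therefore among the 13697 genes tested. RNA-seq was made from choroid plexus (ChP) of the 4th ventricle, the tissue in the brain ventricles that secretes cerebrospinal fluid. Control mice (Ctrl) were adult male C57Bl6J mice after sham surgery, and SCNx mice were adult male C57Bl6J mice whose suprachiasmatic nuclei (SCN), the central circadian clock of the brain, had been lesioned. Both groups had lived under a light-dark cycle with equal parts of light and darkness, and 12 mice per group were then killed in constant darkness, 1 every 4 h from circadian time CT0 to CT44, with CT0 at the hour at which lights would have come on. KO mice were adult male FoxJ1-ERT2-Cre+/-; Bmal1fl/fl mice, from lines on the same background, that had received tamoxifen in the diet and stayed under the light-dark cycle, with 1 mouse at ZT7 (7 h after lights on) and 1 at ZT18. In them the Cre recombinase is made in cells that express Foxj1, a gene of ciliated cells, so that cells without it keep the clock gene Bmal1 (Arntl in the table), and the labels name liver as the tissue in which recombination was tested.

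Every time point of a group was a single mouse. The rhythm of a group was thus tested against the scatter of single mice about the fitted 24 h curves. This scatter was estimated over both groups together and also holds any misfit of the curve. Ctrl and SCNx libraries held 38751201 to 49527655 estimated counts and KO libraries 17425207 and 18059227, and CPM below are counts scaled to these totals and to library composition. The 10 marker genes of ChP epithelium summed to a median of 160193 CPM in Ctrl and 148513 CPM in SCNx. A few libraries stood apart in markers of other cells. The 10 hepatocyte genes, all of them detected, summed to 2550 CPM in Ctrl CT16 and 11828 CPM in SCNx CT0 against group medians of 2.10 and 4.92 CPM, and the 10 genes of neurons and cerebellum to 351 CPM in Ctrl CT4 and 446 CPM in SCNx CT32 against 18.2 and 17.1 CPM. The 5 blood genes summed to 6642 CPM in SCNx CT44 against a SCNx median of 538.5 CPM. The counts of called genes, the peak shifts and the second-day SCNx contrast are given with and without such libraries. In tissue, fewer cells of a type and less RNA per cell cannot be told apart.

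Proteins bound for secretion or for membranes enter the ER unfolded and are folded there by BiP and its partners, by the glycoprotein lectins calnexin and calreticulin, and by enzymes that form disulfide bonds or isomerise bonds at proline. When unfolded protein accumulates, the sensors IRE1, PERK and ATF6 start the unfolded protein response, in which the transcription factors XBP1, ATF4 and the cleaved form of ATF6 raise many of these genes. Cleaved ATF6 acts together with NF-Y at the ER stress response element (ERSE), a CCAAT box followed at a fixed distance by CCACG.

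The promoters of 4 genes with large changes over the day are shown because they carry such elements. Each sequence is that of RefSeq on GRCm38.p6, 5′ to 3′ on the strand of the gene, from 250 bases before to 50 bases after the start of transcription. Capitals mark the fixed letters of the element, which read CCAAT and CCACG on the strand of the gene or CGTGG and ATTGG where the element lies on the other strand. In Dnajb11 they mark a shorter form, ERSE-II.
Hspa5, chr2:34771840-34772139, plus strand: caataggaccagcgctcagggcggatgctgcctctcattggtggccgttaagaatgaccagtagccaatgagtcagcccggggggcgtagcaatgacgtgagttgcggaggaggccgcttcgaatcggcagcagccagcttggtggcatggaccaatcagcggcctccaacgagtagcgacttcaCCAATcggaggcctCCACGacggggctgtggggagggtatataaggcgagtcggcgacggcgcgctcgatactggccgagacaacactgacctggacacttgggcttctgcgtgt
Hsp90b1, chr10:86705395-86705694, minus strand: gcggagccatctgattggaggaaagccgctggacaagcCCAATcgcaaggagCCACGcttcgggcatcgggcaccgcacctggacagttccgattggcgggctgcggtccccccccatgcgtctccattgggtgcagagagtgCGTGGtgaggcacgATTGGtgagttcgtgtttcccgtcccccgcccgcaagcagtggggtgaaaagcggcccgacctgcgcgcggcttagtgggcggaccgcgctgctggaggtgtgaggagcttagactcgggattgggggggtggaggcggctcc
Creld2, chr15:88819396-88819695, plus strand: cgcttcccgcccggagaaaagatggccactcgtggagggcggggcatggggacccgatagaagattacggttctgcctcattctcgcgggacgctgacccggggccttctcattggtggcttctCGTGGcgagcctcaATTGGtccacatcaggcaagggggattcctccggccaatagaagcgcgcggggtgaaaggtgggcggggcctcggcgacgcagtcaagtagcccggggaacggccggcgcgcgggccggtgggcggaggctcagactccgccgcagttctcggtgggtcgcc
Dnajb11, chr16:22857595-22857894, plus strand: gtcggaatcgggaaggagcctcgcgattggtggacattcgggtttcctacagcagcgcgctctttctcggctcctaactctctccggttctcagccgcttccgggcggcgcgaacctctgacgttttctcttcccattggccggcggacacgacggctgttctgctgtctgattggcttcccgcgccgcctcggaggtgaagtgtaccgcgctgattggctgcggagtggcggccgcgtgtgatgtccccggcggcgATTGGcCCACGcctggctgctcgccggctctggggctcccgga

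RefSeq gave a promoter for 31 of the 36 genes and none here for Hyou1, Manf, Sil1, Erp29 and Hspa13. The ERSE, searched on both strands as CCAAT, then 9 bases of any kind, then CCACG, was found in 8 of the 31, namely Hspa5, Hsp90b1, Calr, Canx, Creld2, Dnajc3, Ero1b and Pdia6. Of all 27025 genes with a promoter, 37 held it (0.137%), a gene being counted once if any of its promoters held the element. In Hspa5 the element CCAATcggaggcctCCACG ended 46 bases before the start, and in Pdia6 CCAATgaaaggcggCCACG ended 79 bases before it. Hsp90b1 held 2 copies, 1 on each strand. ERSE-II, searched as ATTGG, then 1 base of any kind, then CCACG, was found in Dnajb11 alone among the 31 and in 0.0444% of all genes with a promoter. The UPRE (TGACGTGG) lay in Txndc5 and Txndc11 against 0.714% of all genes with a promoter, and the XBP1 core (GCCACGT) in Fkbp11, Fkbp14, P4hb, Pdia5, Ppib and Txndc5 against 2.95%, sharing letters with the UPRE in Txndc5 and with an E-box in Fkbp11. The E-box of the clock proteins (CACGTG) lay in Calr, Dnajb9, Dnajc1, Fkbp11, Mesd and Txndc5 against 8.09% of all genes with a promoter. The heat shock element (GAA, TTC and GAA, with 2 bases of any kind between neighbours) was found in 0 of the 31 genes and in 0.662% of all genes with a promoter. A match is a description of the letters, and its absence says only that these letters are not in this window.

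In Ctrl ChP, 18 of the 36 folding genes rose and fell once per day, with the highest expression in the second part of the subjective night and the lowest around the end of the subjective day. The strongest swings belonged to the cofactors Creld2, Manf and Sdf2l1 and to the chaperones Hspa5 and Hyou1, whose fitted peak exceeded the trough 2.71-fold to 3.48-fold. The general isomerases P4hb and Ppib and the chaperone Mesd did not pass the test. A rhythm was tested with edgeR's quasi-likelihood F test on a 24 h cosine and sine per group, with Benjamini-Hochberg adjustment over all 13697 genes, and every adjusted p below is from this test unless another is named. In Ctrl the 18 genes (50%) had an adjusted p under 0.05, against 10.7% of all genes tested. The list was chosen with earlier results of these data known, so the contrast describes it and is no independent test. An adjusted p under 0.4 was found for 31, against 41.7%. The study used 0.4 for the scores of all its detection methods (eJTK, ARSER and BIO_CYCLE). Here the value is applied to a single test, which 5712 genes passed in Ctrl, so it is a looser criterion than the study's. Without Ctrl CT16 and SCNx CT0, the libraries with hepatocyte markers, 18 genes passed (12.3% of all genes tested), and without Ctrl CT4 and SCNx CT32, those with neuronal markers, 21 did (16.5%). Without SCNx CT44 there were 18 (10.8%). The 18 fitted peaks lay between CT19.5 and CT22.0 with a median of CT20.8. Among all 1459 rhythmic genes the median peak was CT13.1, and 23.2% of them peaked from CT17 to before CT21, against 12 of the 18.

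The single libraries show the same course without a fit. Ctrl CT12 held the lowest value of 18 of the 36 genes, and Ctrl CT20 the highest of 15, Ctrl CT16 of 9 and Ctrl CT44 of 6. Summed over the 36 genes, Ctrl CT12 had 6102 CPM and Ctrl CT36, a day later, 6687 CPM, while Ctrl CT20 had 12002 CPM and Ctrl CT44 11806 CPM. Trough and peak thus returned at the same hours on the second day. Fitted to each day alone, the peaks of the 18 rhythmic genes were a median of 0.309 h apart between the days and at most 1.55 h. The amplitude was lower on the second day in 17 of 18, a count not made over all genes. For Manf it was 0.90 and 0.89 and for Calr 0.68 and 0.54 on the first and second day. Each day was fitted to 6 libraries of single mice.

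**Figure D1:**
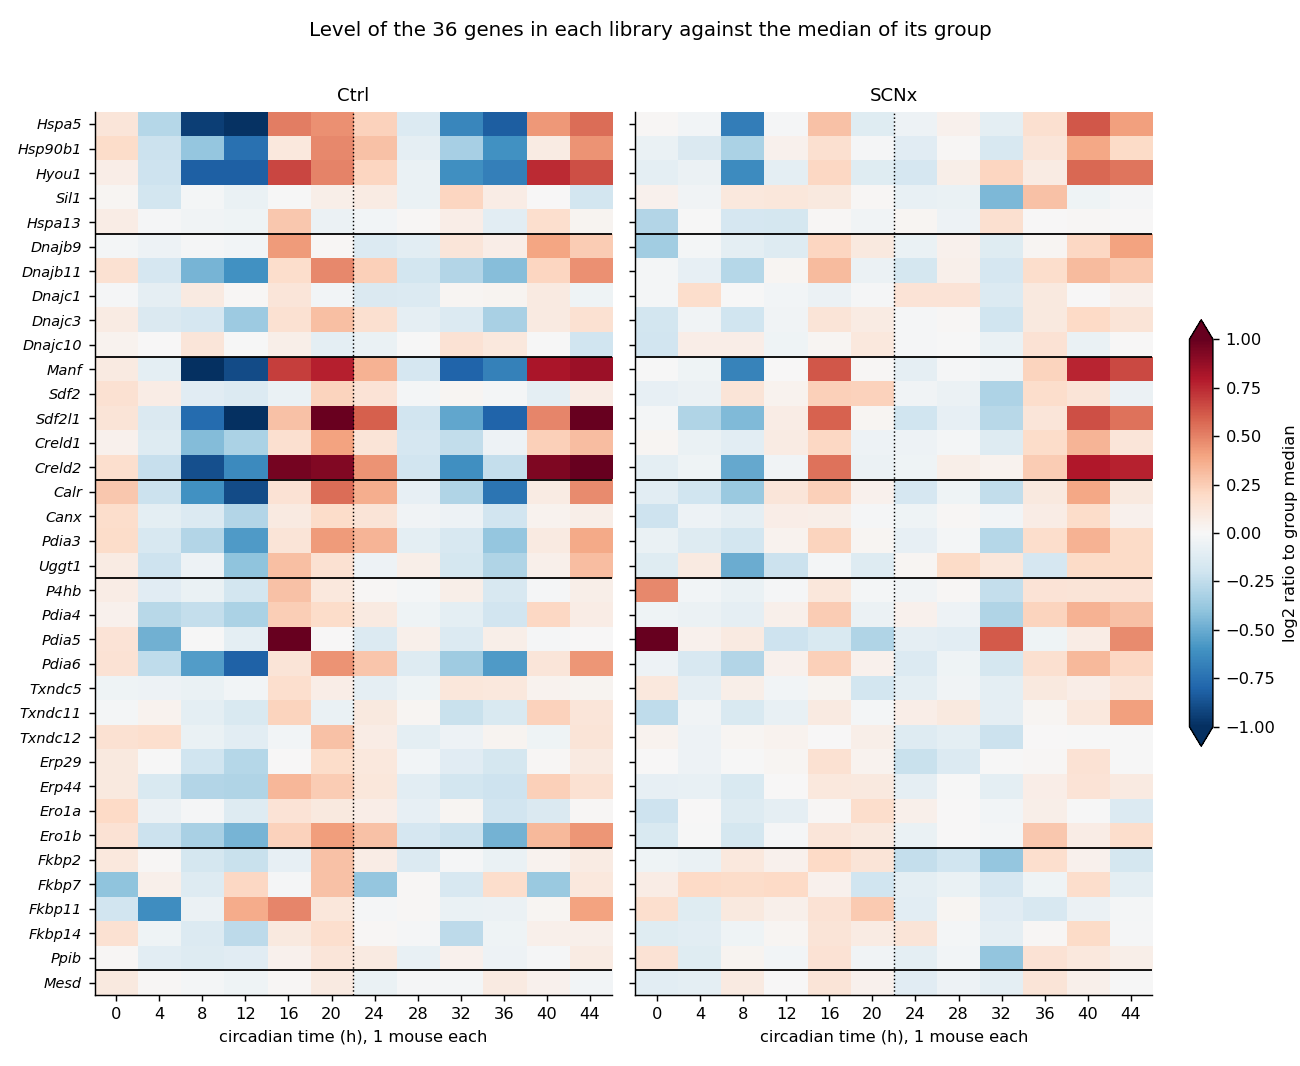
Level of the 36 genes (grouped by role, black lines) in each of the 12 Ctrl and 12 SCNx libraries, as the log2 ratio of CPM to the median of the gene in its group, with a dotted line between the days. Ctrl CT8, CT12, CT32 and CT36 are blue and CT16, CT20, CT40 and CT44 red for most of the rhythmic genes, and the SCNx panel is paler, with CT8 blue and CT16, CT40 and CT44 red.

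Among the chaperones of the Hsp70 and Hsp90 system, 3 of 5 were rhythmic in Ctrl. Hspa5 (ENSMUSG00000026864) encodes BiP, the Hsp70 of the ER. Its lowest Ctrl library was CT12 with 739 CPM, the median was 1467 CPM and the highest CT44 with 2164 CPM. Its SCNx libraries ran from 857 CPM at CT8 over a median of 1386 CPM to 2127 CPM at CT40. The ranges of the groups overlapped almost fully, while the Ctrl libraries were low at CT8, CT12, CT32 and CT36 and high at CT16, CT20, CT40 and CT44. The amplitude in Ctrl, on the log2 scale, was 0.74 ± 0.11 (SE, n = 12), a peak 2.77-fold above the trough, with a peak at CT20.5 (edgeR adjusted p = 0.000392).

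Hsp90b1 encodes GRP94, the Hsp90 of the ER. It ran from 874 CPM at CT12 over 1467 CPM to 2048 CPM at CT20 in Ctrl, and from 1063 CPM at CT8 over 1327 CPM to 1735 CPM at CT40 in SCNx. The Ctrl libraries thus reached both lower and higher than any SCNx library. Its Ctrl amplitude was 0.50 ± 0.06 (edgeR adjusted p = 3e-05). Hyou1, a nucleotide exchange factor of BiP, ran from 118 CPM at CT12 over 208 CPM to 349 CPM at CT40 in Ctrl and from 134 CPM at CT8 over 206 CPM to 307 CPM at CT40 in SCNx, with a Ctrl amplitude of 0.72 ± 0.12 (edgeR adjusted p = 0.00145). The other exchange factor, Sil1, did not follow. Its Ctrl libraries lay between 81.1 and 107 CPM with a median of 92.3 CPM, and its amplitude of 0.03 ± 0.05 had the largest p of the 36 genes (edgeR adjusted p = 0.93). In SCNx Sil1 ran from 64.2 CPM at CT32 over 87.5 CPM to 107 CPM. Hspa13, an Hsp70-like ATPase of the ER, lay between 48.3 and 62.8 CPM in Ctrl, with a median of 52.0 CPM, and between 45.1 and 61.9 CPM in SCNx, with a median of 55.3 CPM (edgeR adjusted p = 0.68 in Ctrl).

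Of the 5 co-chaperones with a J domain, which hand clients to BiP, Dnajb11 and Dnajc3 were rhythmic. Dnajb11, which binds nascent chains, ran from 95.2 CPM at CT12 over 145 CPM to 201 CPM at CT20 in Ctrl and from 103 over 126 to 156 CPM in SCNx, with a Ctrl amplitude of 0.47 ± 0.05 (edgeR adjusted p = 3.34e-05). Dnajc3, the inhibitor p58IPK, had a Ctrl amplitude of 0.25 ± 0.04 (edgeR adjusted p = 0.00141). Dnajb9, which brings BiP to IRE1, ran from 78.4 over 86.2 to 116 CPM in Ctrl, highest at CT16, and from 70.1 over 89.2 to 118 CPM in SCNx. It did not pass in Ctrl (amplitude 0.19 ± 0.06, edgeR adjusted p = 0.087) and had an earlier fitted peak, at CT15.8, than the 18 rhythmic genes. Without SCNx CT0 its Ctrl rhythm passed, with an adjusted p of 0.035. Dnajc1 and the disulfide reductase Dnajc10 had amplitudes of 0.09 and 0.10 in Ctrl (edgeR adjusted p = 0.14 and 0.11).

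The cofactors of BiP and the stress-induced lumen proteins held the largest amplitudes, and 4 of 5 were rhythmic. Creld2, a stress-induced protein with EGF-like domains, ran from 20.4 CPM at CT8 over 37.4 CPM to 76.9 CPM at CT44 in Ctrl, and from 27.4 CPM at CT8 over 39 CPM to 67.9 CPM at CT40 in SCNx. Its Ctrl amplitude was 0.90 ± 0.10, a 3.48-fold swing (edgeR adjusted p = 3.94e-05). Manf, a secreted factor that binds BiP, ran from 75.8 CPM at CT8 over 155 CPM to 280 CPM at CT44 in Ctrl, and from 89.8 CPM at CT8 over 143 CPM to 242 CPM at CT40 in SCNx. Its Ctrl amplitude was 0.89 ± 0.12, a 3.44-fold swing (edgeR adjusted p = 0.000115). In both genes the lowest Ctrl library lay below every SCNx library and the highest above.

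Sdf2l1, which works with BiP and Dnajb11, had the widest range of the cofactors. It ran from 25.0 CPM at CT12 over 54.8 CPM to 112 CPM at CT44 in Ctrl, 4.49-fold between the extreme libraries, and from 34.2 CPM at CT8 over 46.4 CPM to 72.6 CPM at CT40 in SCNx, 2.13-fold. Its Ctrl amplitude was 0.89 ± 0.12 (edgeR adjusted p = 1.52e-05). Its paralog Sdf2 had a Ctrl amplitude of 0.13 ± 0.03 (edgeR adjusted p = 0.13), and ran from 59.7 over 65.7 to 76.6 CPM in Ctrl and from 48.9 over 60.5 to 71.4 CPM in SCNx. Only 1 of the paralogs thus passed, and the difference between them was not tested. Creld1, a membrane-anchored relative of Creld2, ran from 30.8 over 41.6 to 55.1 CPM in Ctrl and from 33.8 over 37.0 to 46.9 CPM in SCNx, with a Ctrl amplitude of 0.34 ± 0.04 (edgeR adjusted p = 3e-05).

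**Figure D2:**
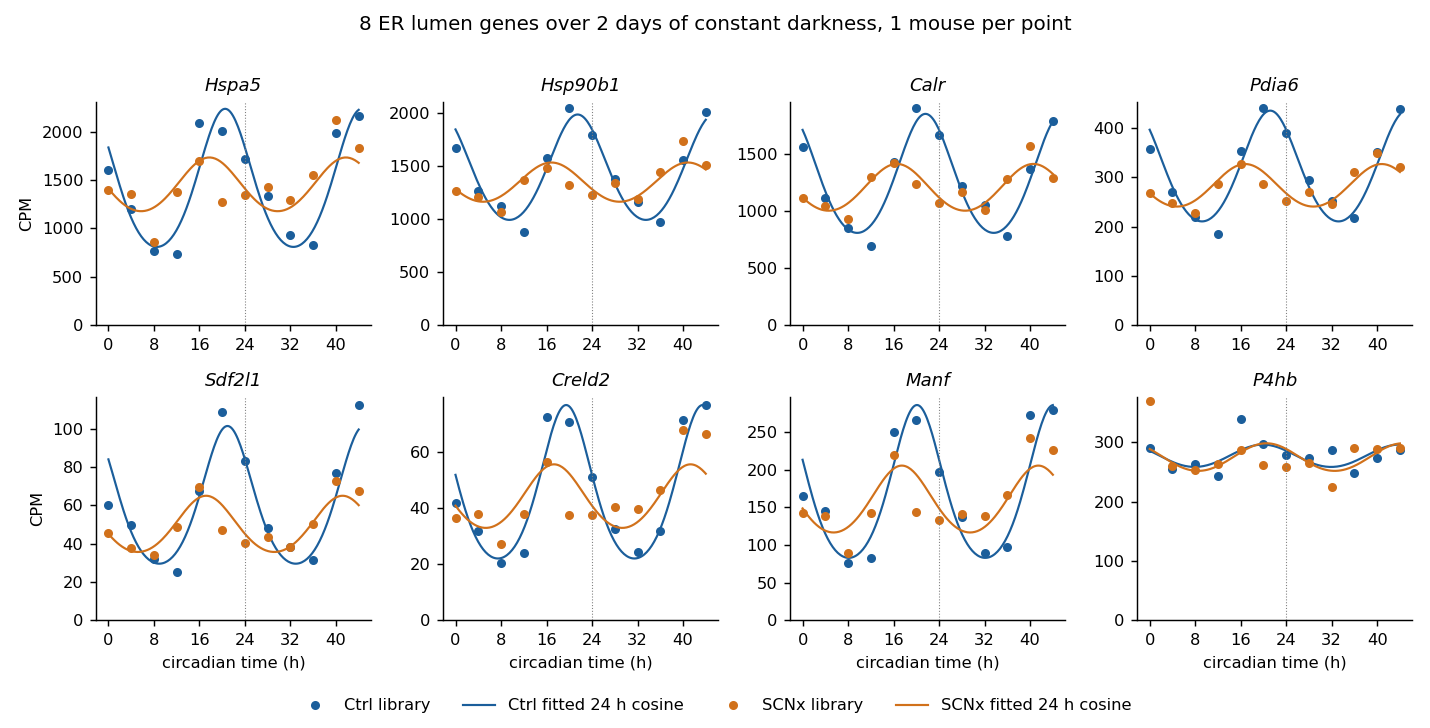
CPM of 8 genes by circadian time in Ctrl (blue) and SCNx (orange), 1 mouse per point, with the fitted 24 h cosine of each group as a line and a dotted line at CT24. For Hspa5 the Ctrl points run from 739 to 2164 CPM in 2 cycles of like shape, and P4hb stays between 242 and 338 CPM in Ctrl.

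In the calnexin-calreticulin cycle, which holds newly made glycoproteins until they are folded, 3 of 4 genes were rhythmic. The lectin calreticulin, Calr, ran from 692 CPM at CT12 over 1288 CPM to 1896 CPM at CT20 in Ctrl and from 928 CPM at CT8 over 1197 CPM to 1568 CPM at CT40 in SCNx. Its Ctrl amplitude was 0.60 ± 0.08, a 2.29-fold swing with a peak at CT21.6 (edgeR adjusted p = 1.54e-05). The membrane-bound lectin calnexin, Canx, moved far less, from 626 over 766 to 872 CPM in Ctrl and from 626 over 721 to 821 CPM in SCNx, with a Ctrl amplitude of 0.18 ± 0.03 (edgeR adjusted p = 0.00526). Pdia3 is the disulfide isomerase ERp57, the partner of both lectins. It ran from 525 CPM at CT12 over 778 CPM to 1045 CPM at CT20 in Ctrl and from 579 over 705 to 895 CPM in SCNx, with a Ctrl amplitude of 0.39 ± 0.05 (edgeR adjusted p = 7.56e-05). Uggt1, the glucosyltransferase that returns misfolded glycoproteins to the lectins, had an amplitude of 0.22 ± 0.07 in Ctrl and did not pass (edgeR adjusted p = 0.14).

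Of the 11 disulfide isomerases and oxidases, 5 were rhythmic in Ctrl, namely Pdia6, Pdia4, Erp29, Erp44 and Ero1b. Pdia6 had the smallest p of the whole list. It ran from 184 CPM at CT12 over 323 CPM to 441 CPM at CT20 in Ctrl and from 227 CPM at CT8 over 278 CPM to 348 CPM at CT40 in SCNx, and its Ctrl amplitude was 0.52 ± 0.07, a 2.07-fold swing (edgeR adjusted p = 8.89e-06). Of the oxidases, Ero1b ran from 34.8 over 48.4 to 65.8 CPM in Ctrl and from 39.8 over 44.9 to 54.0 CPM in SCNx, with a Ctrl amplitude of 0.43 ± 0.06 (edgeR adjusted p = 4.06e-05), and Ero1a had one of 0.10 ± 0.04 (edgeR adjusted p = 0.27). The difference between the oxidases was not tested. Erp44, which brings oxidases back from the Golgi, had a Ctrl amplitude of 0.28 ± 0.04 and Erp29, which lacks an active-site cysteine pair, one of 0.18 ± 0.02 (edgeR adjusted p = 9.27e-05 and 0.000793). Erp29 ran from 33.4 over 40.6 to 46.2 CPM in Ctrl and from 32.2 over 37.6 to 41.8 CPM in SCNx. Pdia4 had an amplitude of 0.22 ± 0.05 in Ctrl (edgeR adjusted p = 0.024), a call that was lost without Ctrl CT8 (adjusted p = 0.065).

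P4hb, the founding disulfide isomerase, did not pass in Ctrl (amplitude 0.10 ± 0.05, edgeR adjusted p = 0.51). It ran from 242 over 276 to 338 CPM in Ctrl, highest at CT16, and from 225 over 264 to 369 CPM in SCNx, highest at CT0. Those are the libraries with the hepatocyte markers. Pdia5, the rarest gene of the list, was highest in the same libraries, with 3.10 CPM at Ctrl CT16 against a median of 0.953 CPM and 3.94 CPM at SCNx CT0 against 1.05 CPM. Their part in these values was not tested beyond leaving both libraries out, after which Pdia5 no longer reached the minimum level and 35 of the 36 genes were tested. Txndc5, Txndc11 and Txndc12, which carry thioredoxin domains, had Ctrl amplitudes between 0.07 and 0.13 and did not pass.

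Among the prolyl isomerases, 1 of 5 was rhythmic in Ctrl. Fkbp14, known for its part in collagen folding, had a Ctrl amplitude of 0.16 ± 0.03 (edgeR adjusted p = 0.013), and lost the call without Ctrl CT32 (adjusted p = 0.053). Ppib, cyclophilin B, ran from 140 over 153 to 166 CPM in Ctrl and from 109 CPM at CT32 over 143 CPM to 158 CPM in SCNx (edgeR adjusted p = 0.37 in Ctrl). Fkbp2 ran from 59.3 over 69.2 to 84.6 CPM in Ctrl and from 47.3 CPM at CT32 over 61.9 to 70.9 CPM in SCNx. For 10 of the 36 genes, namely Sil1, Sdf2, P4hb, Fkbp2, Ppib, Pdia3, Pdia4, Creld1, Dnajc1 and Txndc12, the lowest SCNx library was CT32, the one with neuronal markers, in which the epithelial markers summed to 105166 CPM against the median of 148513 CPM, and the part of this in their values was not tested. Fkbp7 and Fkbp11 were rare, with Ctrl medians of 3.75 and 3.19 CPM. Fkbp7 ran from 2.85 to 4.60 CPM in Ctrl and from 3.18 over 3.66 to 4.20 CPM in SCNx (edgeR adjusted p = 0.72 in Ctrl). Mesd, the chaperone of the LDL receptor family, lay between 73.2 and 82.1 CPM in Ctrl, with a median of 76.5 CPM and an amplitude of 0.02 ± 0.02 (edgeR adjusted p = 0.82), and between 68.3 and 80.9 CPM in SCNx, with a median of 73.9 CPM.

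**Figure D3:**
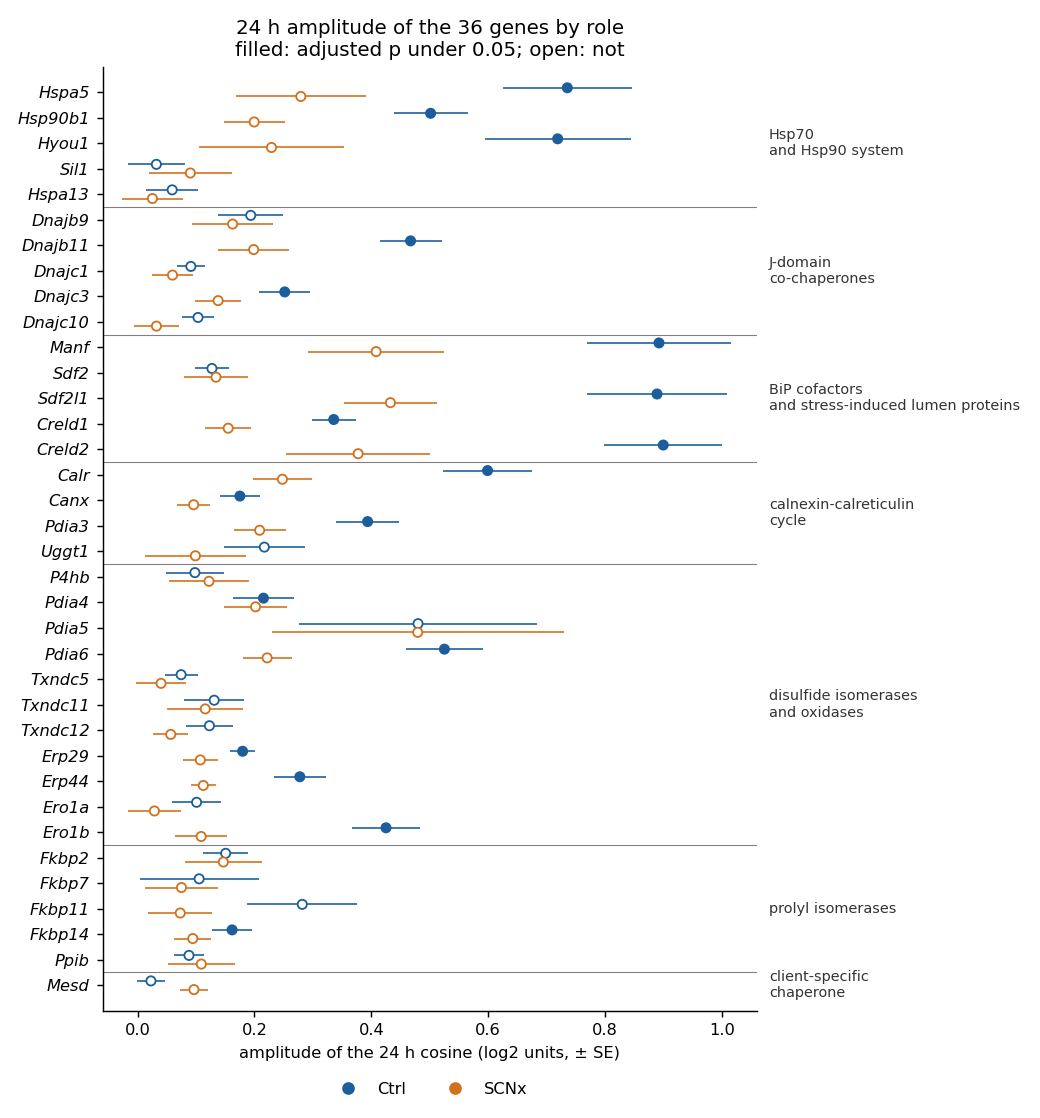
Amplitude of the 24 h cosine (log2 units, point ± SE from 12 libraries) of the 36 genes by role, in Ctrl (blue) and SCNx (orange), filled where the adjusted p was under 0.05. The filled points are the 18 rhythmic genes of Ctrl, from 0.16 for Fkbp14 to 0.90 for Creld2, and no SCNx point is filled.

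Per kilobase of exon, counted on the GENCODE M21 annotation, the genes covered a wide range of levels in Ctrl. Calr led with a mean of 587 CPM per kb, before Hsp90b1 with 514, Hspa5 with 386, Pdia3 with 285, Canx with 179, Ppib with 171, Pdia6 with 144 and Pdia4 with 140 CPM per kb, and Pdia5 was last with 0.610 CPM per kb. The most abundant genes included both strongly rhythmic ones, such as Calr and Hspa5, and steady ones, such as Ppib.

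The ERSE set side by side with the rhythms gave an uneven split. All 8 genes with an ERSE and Dnajb11 with its ERSE-II were among the 15 rhythmic genes with a promoter sequence, and 0 of the 16 others held either. The rhythmic genes Sdf2l1, Creld1, Pdia3, Pdia4, Erp44 and Fkbp14 held neither element in this window. Outside the list, 11 further tested genes held an ERSE, of which 4 were rhythmic in Ctrl, Alg12, Derl3, Hnrnpa3 and Syvn1. Of the 6 genes with an XBP1 core only Fkbp14, and of the 6 with an E-box only Calr, were rhythmic. The split was seen after the rhythms were known and was not tested.

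In SCNx ChP, the fitted daily swing of the 18 genes was smaller and its fitted peak earlier than in Ctrl. The curve joins different mice, so a smaller swing in each mouse and mice out of phase with each other cannot be told apart. By edgeR 0 of the 36 genes had an adjusted p under 0.05 for a rhythm in SCNx, against 0% of all genes, the lowest adjusted p being 0.137. At an unadjusted p under 0.05 there were 20 of 36 (14.8% of all genes tested), and at an adjusted p under 0.4 there were 21 (22.4%). The likelihood ratio test of DESeq2 called 10 of the 36 in SCNx (3.15% of 13697 genes), among them Sdf2l1, Manf, Creld2, Calr, Pdia3, Pdia4 and Pdia6, edgeR without a minimum level called 5 (3.44% of 40287 genes), and limma and a rank test called 0. In simulated data the rank test recovered few of the added rhythms at an adjusted p under 0.05, so its 0 says little. SCNx CT40 held the highest value of 16 genes, and SCNx CT8 the lowest of 13 and SCNx CT32 of 10. The sum over the 36 genes ran from 6963 CPM at CT8 to 10922 CPM at CT40 in SCNx.

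The difference of the rhythm itself, tested in the same model, passed for 10 of the 36 genes against 2.12% of all genes. These were Calr (edgeR adjusted p = 0.00419), Pdia6, Erp29, Hsp90b1, Ero1b, Sdf2l1, Pdia3, Dnajb11, Creld1 and Canx, and the amplitude was lower in SCNx in all 10. For Calr it fell from 0.60 ± 0.08 to 0.25 ± 0.05 and for Ero1b from 0.43 ± 0.06 to 0.11 ± 0.04. For Hspa5 the amplitudes were 0.74 ± 0.11 in Ctrl and 0.28 ± 0.11 in SCNx, for Manf 0.89 ± 0.12 and 0.41 ± 0.12 and for Creld2 0.90 ± 0.10 and 0.38 ± 0.12, and these 3 did not pass the test of the difference (edgeR adjusted p = 0.13, 0.11 and 0.081). They passed without SCNx CT8, with adjusted p of 0.036, 0.039 and 0.036, and by the likelihood ratio test of DESeq2. The call of Canx was lost without any single one of Ctrl CT0, CT8, CT12, CT20, CT24, CT28 and CT36 and of SCNx CT0, CT12, CT16, CT20, CT24, CT36, CT40 and CT44 (adjusted p = 0.051 to 0.088), and that of Creld1 without Ctrl CT8 (adjusted p = 0.051). With the 6 times of day as a factor the calls of Canx, Creld1 and Erp29 were lost (adjusted p = 0.17, 0.19 and 0.18), and without a minimum level those of Canx and Erp29 (adjusted p = 0.27 and 0.051). Without Ctrl CT16 and SCNx CT0 together 9 genes passed (1.57% of all genes tested), and without Ctrl CT4 and SCNx CT32 together 11 (3.74%). Without SCNx CT44 there were 9 (1.43%). Pdia4 had nearly the same amplitude in both groups, 0.22 ± 0.05 and 0.20 ± 0.05 (edgeR adjusted p of the difference = 0.51).

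Across the 18 genes rhythmic in Ctrl, the ratio of the SCNx to the Ctrl amplitude ran from 0.256 to 0.937 with a median of 0.441. Over all 1459 rhythmic genes of Ctrl the median ratio was 0.396, and 1441 of them had a lower amplitude in SCNx, so that the fall of these 18 lay near that of rhythmic genes in general. Since they were selected for their rhythm in Ctrl, a lower amplitude in SCNx is in part fixed by that selection. An unadjusted p under 0.05 in SCNx was found for 16 of the 18, and for 29.3% of the 1459.

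All 18 fitted peaks came earlier in SCNx, between CT14.6 and CT17.7 with a median of CT16.9, a shift of 2.13 to 7.13 h with a median of 3.79 h. The shift exceeded 2 of its standard errors in 14 of the 18, a count not made over all genes. Among the 1459 rhythmic genes 1087 peaked earlier. Over all 1459 the median of SCNx minus Ctrl peak was -2.92 h, so an earlier peak was common among rhythmic genes. Erp29 moved from CT22.0 ± 0.5 to CT15.0 ± 1.1 and Calr from CT21.6 ± 0.5 to CT16.6 ± 0.8, while Hspa5 moved from CT20.5 ± 0.6 to CT17.7 ± 1.5. All 18 peaks remained earlier without Ctrl CT16 and SCNx CT0, without Ctrl CT4 and SCNx CT32 and without SCNx CT44, with median shifts of 3.86, 3.95 and 3.92 h. With the 6 times of day as a factor, 14 of the 18 had the earlier peak, and by the rank test 17 did. Between the days the SCNx peaks of the 18 genes were a median of 1.02 h apart and at most 2.78 h, and 13 of 18 lay within 2 h of each other.

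**Figure D4:**
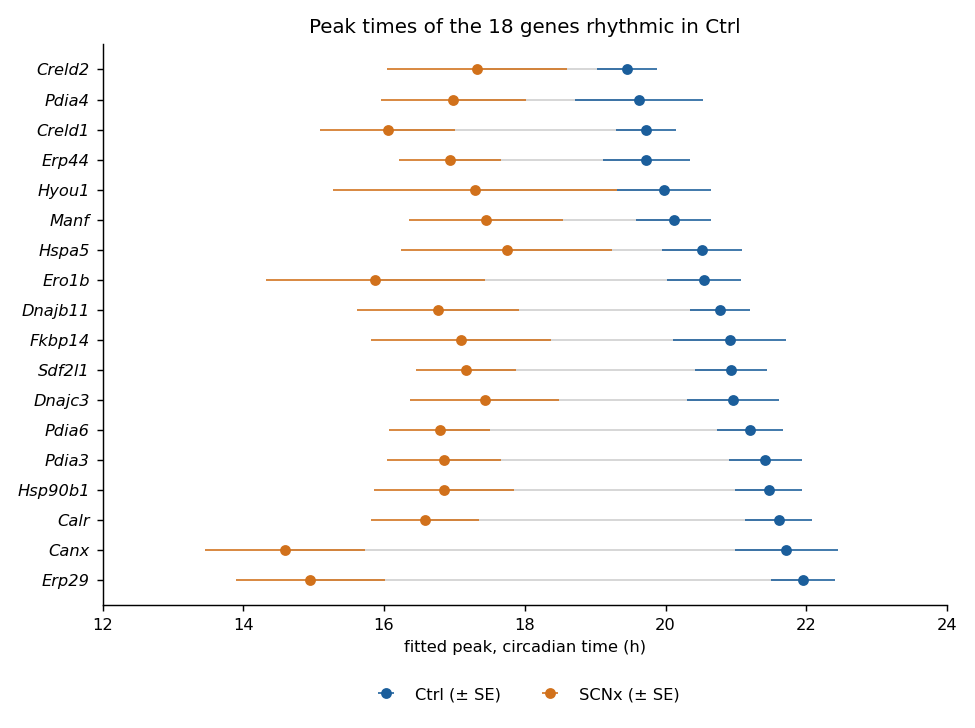
Fitted peak (circadian time in h, ± SE) of the 18 genes rhythmic in Ctrl, with Ctrl in blue and SCNx in orange, joined by a grey line and sorted by the Ctrl peak. All orange points lie to the left of the blue ones, at CT14.6 to CT17.7 against CT19.5 to CT22.0.

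The mean level over the 2 days differed little between the groups. By edgeR 0 of 36 genes had an adjusted p under 0.05 (0% of all genes) and 0 under 0.25 (0%), the smallest being 0.37. DESeq2 and limma called 0 at 0.05 as well, against 0.0511% and 0% of all genes. The paper compared the pooled groups by DESeq2 at 0.25, reported ER terms enriched among those genes, and headed the result as downregulation of ER genes. Here the genes under 0.25 by DESeq2 were not counted over all genes. Under 0.25, DESeq2 called Txndc5 (adjusted p = 0.198), and edgeR called Txndc5 and Fkbp2 with the cosine and sine kept in the model or without SCNx CT36, and Txndc5 without SCNx CT8. At an unadjusted p under 0.05, 3 genes were lower in SCNx, against 4.58% of all genes, and 0 higher, against 4.78%. The 3 were Txndc5 with a log2 fold change of -0.12 ± 0.04 (SE), Fkbp2 with -0.18 ± 0.06 and Fkbp11 with -0.27 ± 0.10, with edgeR adjusted p of 0.37, 0.43 and 0.43. Mesd with -0.06 ± 0.03 and Sdf2 with -0.10 ± 0.05 came next. Txndc5 ran from 80.7 over 85.7 to 96.2 CPM in Ctrl and from 70.2 over 79.7 to 86.9 CPM in SCNx, and Fkbp11 from 2.07 over 3.19 to 4.48 CPM and from 2.43 over 2.72 to 3.25 CPM, so that the groups overlapped in both. Of the 36 fitted levels 29 were lower and 7 higher in SCNx, against 5959 lower and 7738 higher of the 13697 genes tested. Of the 36, 26 were lower without Ctrl CT16 and SCNx CT0, 30 without Ctrl CT4 and SCNx CT32 and 31 without SCNx CT44. The median log2 fold change of the 36 was -0.06, and that of all genes tested 0.01. Of the genes with a large swing, Hspa5 had a log2 fold change of 0.01 ± 0.18, Manf one of -0.10 ± 0.22 and Sdf2l1 one of -0.30 ± 0.22.

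Other genes of the pathway were counted in the same way. Of 15 sensors and transcription factors of the unfolded protein response, Xbp1 alone was rhythmic in Ctrl, with an amplitude of 0.59 ± 0.05, a 2.27-fold swing and a peak at CT19.5, and its rhythm differed in SCNx (edgeR adjusted p = 0.032). The sensor genes Ern1, Eif2ak3 and Atf6 had Ctrl amplitudes of 0.02, 0.02 and 0.03. In ER-associated degradation, which removes misfolded proteins, 8 of 20 genes were rhythmic, among them Derl3 with a 6.83-fold swing, Herpud1 with a 2.21-fold swing and Sel1l and Syvn1 of the ubiquitin ligase complex. Of 20 genes of the translocon and of N-glycosylation, 7 were rhythmic, all of the signal peptidase or the oligosaccharyltransferase (Spcs2, Spcs3, Stt3b, Rpn1, Ddost, Ostc and Magt1), and the rhythm of 4 differed in SCNx. Of 15 cytosolic and mitochondrial heat shock chaperones and their regulators 10 were rhythmic, with a median peak at CT19.3 against CT20.8 for the 18 ER genes. All 17 clock genes were rhythmic in Ctrl, and the rhythm differed for 14 of them.

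In the KO mice, the night library did not stand above the day library for these genes. With 1 mouse per time there is no test, and the KO libraries differ from the others in light regime, in dissection from frozen brain by laser capture, in a kit for low input of total RNA and in a mitochondrial share of 25.1% and 21.8% of counts, which cannot be told apart from the genotype. The KO mice were also older, were kept at another site, had received tamoxifen and had no surgery described. Their RNA integrity was lower on average by the paper. None of this can be told apart from the genotype either. The deletion takes out part of Arntl, whose total count of 184 and 169 does not check it. On log2 CPM the night-day difference (ZT18 minus ZT7) had a median of -0.20 over the 36 genes, with 9 higher at night. In Ctrl the corresponding medians were 0.37 (CT20 minus CT8) and 0.28 (CT44 minus CT32), with 33 and 28 genes higher at night, and in SCNx 0.13 and 0.25, with 29 and 33 higher. The second SCNx contrast joins CT44, with the blood markers, to CT32, with the neuronal markers, and was 0.13 with CT28 in place of CT32 and 0.18 with CT40 and CT28 in place of both, with 31 and 32 higher. The median over all genes tested lay between -0.00265 and 0.0222 in these 5 contrasts.

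Hspa5 had 1073 CPM at ZT7 and 812 CPM at ZT18 in KO, a difference of -0.40 against 1.40 and 1.22 in Ctrl and 0.57 and 0.50 in SCNx. For Hsp90b1 the difference was -0.51 in KO against 0.87 and 0.79 in Ctrl, and for Manf -0.22 against 1.81 and 1.65. For Sdf2l1 and Creld2 the KO differences were 0.12 and 0.09, against 1.75 and 1.80 on the first day in Ctrl. The extremes in KO, Fkbp7 with 0.98, Fkbp11 with -0.998 and Pdia5 with -1.32, rest on 11 to 65 counts per library. The markers of neurons summed to 287 and 356 CPM and those of astrocytes to 818 and 891 CPM in KO, of the order of the Ctrl and SCNx libraries with brain tissue, and the epithelial markers to 90083 and 78592 CPM. The part of this makeup in the night-day differences was not tested.

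**Figure D5:**
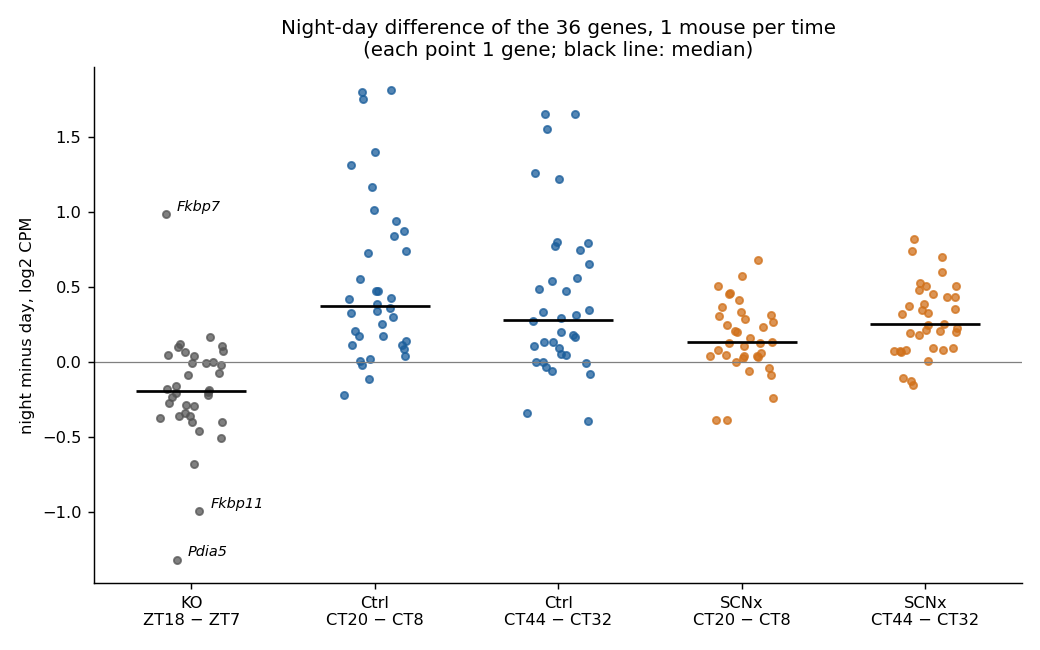
Night minus day difference on the log2 CPM scale of the 36 genes, 1 point per gene and a black line at the median, in KO (grey), Ctrl (blue) and SCNx (orange), with 1 mouse per time. The median is -0.20 in KO, 0.37 and 0.28 in Ctrl and 0.13 and 0.25 in SCNx.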

How the data were processed

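Libraries of Ctrl and SCNx were made from polyadenylated RNA and those of KO from total RNA at low input. The authors ran the nf-core/rnaseq pipeline, with Salmon 1.9.0 among the tools in the submitters' processing notes, on GRCm39 and deposited estimated counts per gene, not normalized. These estimated counts were rounded here to whole numbers. A gene entered the tests if its mean CPM reached 1 in each of these groups, which left 13697 genes. TMM factors came from edgeR 4.0.16 (R 4.3.3), and all 24 libraries of Ctrl and SCNx entered 1 model, with a separate mean and 24 h cosine and sine terms for either group. Levels were compared in a second model with the group alone. Tests were edgeR's quasi-likelihood F tests with Benjamini-Hochberg adjustment over all tested genes, at 0.05. CPM are counts relative to the TMM-scaled library size, and for night-day differences on the log2 CPM scale a prior count of 1 was added. SEs of amplitudes and peaks come from the residuals of log2 CPM of the 12 libraries about the fitted curve. The peak-to-trough fold is that of the fitted cosine.

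The members, roles and pathway lists were chosen with earlier results of these data known. Values of single libraries are given for the textbook chaperones and stress targets and for the 5 genes with the smallest p in each test and the 5 with the largest p in Ctrl, and others are named for a call that changed or a paralog. Alternatives were DESeq2 1.42.0, its size factors, limma 3.58.1, a rank test with 200000 random orders, other minimum levels, the time of day as a factor, a linear trend, each group alone, libraries left out, and CT28 in place of CT32, chosen after seeing the data. The fits were tested on simulated data, in which the rank test recovered few of the added rhythms at an adjusted p under 0.05. No deposited columns were left out. Sequences of promoters are RefSeq's on GRCm38.p6, and exon lengths those of GENCODE M21, while the counts rest on GRCm39. Whole-gene counts do not tell isoforms apart.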

Additional observations from a re-analysis of the deposited data

Results flagged for a closer look

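For 10 of the 36 genes the 24 h rhythm differed between SCNx and Ctrl by edgeR's quasi-likelihood test of the difference, with Benjamini-Hochberg adjustment. The adjusted p was 0.00419 for Calr, 0.00551 for Pdia6, 0.00963 for Erp29, 0.0111 for Hsp90b1 and 0.0132 for Ero1b. It was 0.0157 for Sdf2l1, 0.0179 for Pdia3, 0.0198 for Dnajb11, 0.0232 for Creld1 and 0.0370 for Canx. In each of the 10 the amplitude was lower in SCNx and the fitted peak earlier, by 3.67 h for Creld1 to 7.13 h for Canx. The calls of Calr, Pdia6, Hsp90b1, Ero1b, Sdf2l1, Pdia3 and Dnajb11 held in all 33 alternatives that gave this test.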

How the results depend on the processing

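The number of genes rhythmic in Ctrl was 14 to 21 over the alternatives, against 2.77% to 16.5% of all genes tested. It was 17 to 21 when 1 library was left out, against 6.7% to 16.6%. That of differences was 8 to 14 in both, against 0.569% to 4.3% over the alternatives and 1.19% to 3.44% with 1 library left out. The number rhythmic in SCNx was 0 when 1 library was left out, by limma and by the rank test, which recovered few simulated rhythms. It was 5 without a minimum level (1384 of the 40287 genes then tested) and 10 by DESeq2 (432 of 13697), and the cause was not tested. For levels, 0 genes had an adjusted p under 0.05 in every alternative, and at most 2, Txndc5 and Fkbp2, had one under 0.25. The 3 genes lower in SCNx at an unadjusted p under 0.05 became 5 without a minimum level and 11 with cosine and sine kept in the model. They became 3 to 7 when 1 library was left out. The share of all genes was not counted in these settings. The SCNx night-day median was 0.21 on the first day with CT16 in place of CT20. On the second it was 0.35 with CT40 in place of CT44 and, chosen after seeing the data, 0.13 with CT28 in place of CT32. When 1 library was left out, an unadjusted p under 0.05 in SCNx was found for 15 to 21 genes and a lower level for 25 to 32. With circadian time as a replicate block, 0 levels passed, 27 were lower and 4 were lower at an unadjusted p under 0.05. Between libraries of the same time, deviations from the group mean correlated across genes with r of -0.444 to 0.335, above 0.1 in 5 of 12. The lowest r were at CT16, CT0, CT32 and CT4, the times of the libraries with hepatocyte or neuronal markers. The check therefore cannot decide whether the times pair the mice. The Ctrl calls of Canx, Dnajc3, Erp44, Fkbp14, Hyou1 and Pdia4 were lost in 1 to 4 of 35 alternatives. Without SCNx CT32, Fkbp2, Sdf2 and Txndc12 became rhythmic in Ctrl and the differences of Fkbp2 and Sdf2 passed. Txndc12 also passed in Ctrl without Ctrl CT4 and Fkbp11 without Ctrl CT40. The difference of Erp44 passed without Ctrl CT16, Ctrl CT44 or SCNx CT8. Depth was lowest for Pdia5, Fkbp7 and Fkbp11. Counting error and the spread between mice were not compared.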
